A study of Homo sapiens with 8 samples.

Results

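The genes described here are 10 genes of arginine and polyamine metabolism, chosen as the rows of the deposited table whose Ensembl identifiers map to the symbols ASS1, ASL, ARG2, ODC1, AZIN1, AMD1, SRM, SMS, SAT1 and SMOX. All 10 are among the 30233 genes of that table, and all 10 lie above the low-value filter used for testing. RNA-seq was run on 8 libraries of THP-1, a human monocytic leukaemia line made macrophage-like with the phorbol ester PMA (100 ng/ml for 24 h, then 24 h without PMA). Of these libraries, 4 came from cells given LPS (100 ng/mL, a bacterial cell-wall component that activates inflammatory genes) and 3-HPA (3-hydroxypropionic acid, 5 mM) at once, and 4 from cells given LPS alone. The simultaneous addition comes from the treatment protocol in the labels, whereas the series' design text speaks of pretreatment. All carry the label WT, and both groups had the same PMA step. The labels give neither the time under LPS nor separate cultures for the replicates, so the p-values speak only to how far these libraries scatter, and that scatter may be technical. Every difference below lies between LPS-stimulated states, since unstimulated cells and cells given 3-HPA alone were not analysed here.

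Arginine stands at a branch point in macrophages. It can be oxidised to nitric oxide by the synthase NOS2, or cleaved by arginase to ornithine, and ASS1 with ASL can remake it from citrulline. ODC1 decarboxylates ornithine to putrescine, the first committed step to polyamines, small cations that bind nucleic acids and help translation. SRM and SMS lengthen putrescine to spermidine and spermine with aminopropyl groups that AMD1 prepares from S-adenosylmethionine. SAT1 and SMOX take the chain apart again, by acetylation and by oxidation of spermine.

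With 3-HPA, the spermine oxidase gene SMOX more than doubled, which was the largest change among the 10 genes. The gene for argininosuccinate synthase, ASS1, was the largest decrease. Expression also rose for ASL, AZIN1, AMD1 and, narrowly, SAT1, and fell for ODC1 and SRM, while ARG2 and SMS did not pass the test. Thus 5 genes rose, against 15.7% of all 12499 genes tested, and 3 fell, against 28.0% of all genes tested (limma on log2(FPKM + 1), adjusted p under 0.05). In either direction that is 8 of 10, against 43.7% of all tested genes. The groups did not overlap for these 8 genes, against 42.2% of all tested genes (15.3% upward and 26.9% downward). Transcripts of the mitochondrial genome made up 4.37% to 4.58% of all FPKM in the libraries with 3-HPA and 2.94% to 3.08% in those with LPS alone, with no overlap, and the part of this share in the changes of the 10 genes was not tested. The median absolute log2 fold change was 0.25 for the 10 genes and 0.13 for all tested genes. The median signed value was 0.04 for the 10 genes and -0.05 for all tested genes.

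**Figure D1:**
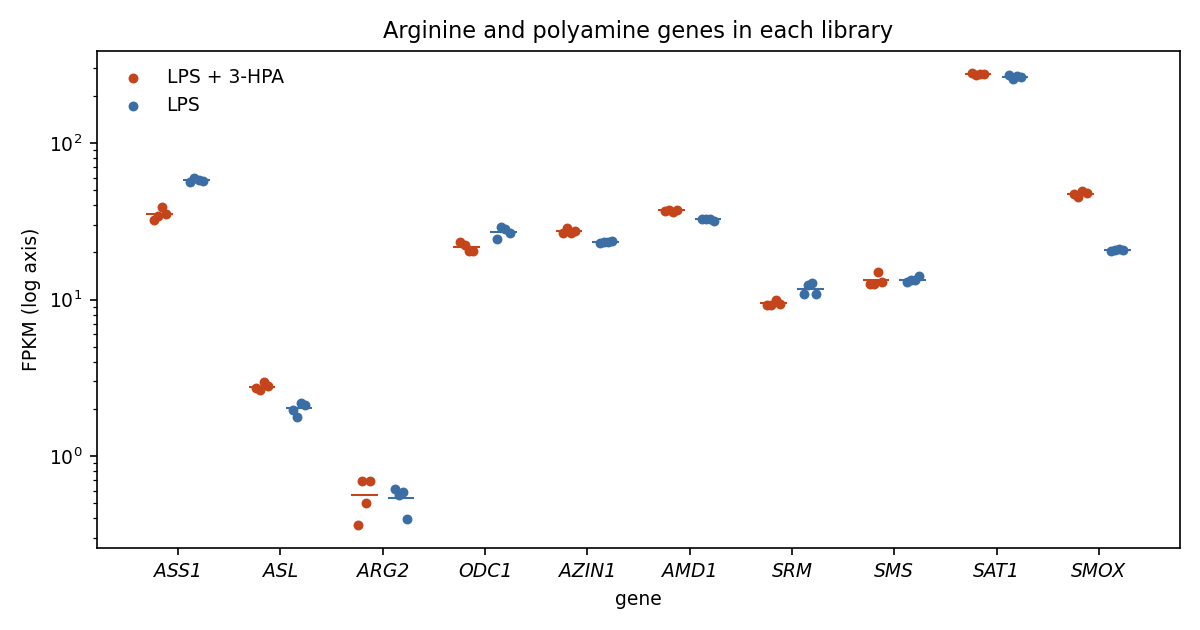
FPKM of each gene (log axis) in the 4 libraries with LPS and 3-HPA (left of each pair) and the 4 with LPS alone (right). Points are libraries and bars are group means. SMOX and ASS1 show the widest gaps between groups, and levels run from ARG2, at most 0.694 FPKM, to SAT1, at least 255.8 FPKM.

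Levels are in FPKM, which divides the reads of a gene by its length and by the size of the library, so they can be compared between genes as far as the lengths hold. Lengths recovered from the values were 0.945 to 1.11 times the exonic length in GENCODE 29 for 8 of the 10 genes, 1.45 times for AMD1 and 1.89 times for ASL. With the same reads, levels of these last genes relative to others would be that much higher on the GENCODE length. A change of length alone does not touch the ratio of FPKM between the groups. Reads were not recounted on GENCODE exons, so the effect of other exons is not known. Fold changes on log2(FPKM + 1) would shift through the added 1, most for genes of low level. Library totals recovered from the values were 35647756 to 41859879 reads. By mean level SAT1 ranked 108 among the 12499 tested genes, ASS1 835, AMD1 1144, SMOX 1166, AZIN1 1587, ODC1 1640, SMS 2843, SRM 3439, ASL 7845 and ARG2 12107. Fold changes are LPS with 3-HPA minus LPS on log2(FPKM + 1); for genes of low level this scale shrinks the change. In such bulk samples, fewer cells expressing a gene and less RNA of it per cell cannot be told apart. Of 8 macrophage marker genes, all were above 0 in all libraries, with a summed level of 1056 to 1107 FPKM with 3-HPA and 822.6 to 838.6 FPKM with LPS alone. That sum is mostly CSF1R, SPI1 and CD14, which rose with 3-HPA (log2 fold changes of 0.49, 0.23 and 0.77), as did ITGAM (0.18). MSR1 (-0.30) and FCGR1A (-0.19) fell and LYZ did not pass (-0.09, limma adjusted p = 0.244). The marker CD68 was at 0.0259 to 0.126 FPKM with 3-HPA and 0.0601 to 0.0784 FPKM with LPS alone. In GENCODE 29, 85.8% of the exonic bases of CD68 are shared with other genes. The fibroblast marker COL1A1 was at 3.65 to 4.02 FPKM with 3-HPA and 1.93 to 2.28 FPKM with LPS alone (log2 fold change 0.65, limma adjusted p = 6.11e-06). The other fibroblast markers were at or near 0: COL1A2 and LUM at 0 in all libraries with 3-HPA and at most 0.0179 FPKM with LPS alone, and DCN at most 0.0124 FPKM with 3-HPA and 0.0262 FPKM with LPS alone. The sum of the 3 B-cell markers was 0.203 to 0.486 FPKM with 3-HPA and 0.358 to 0.497 FPKM with LPS alone. The epithelial marker CDH1 and the erythroid marker HBA1 were at most 0.009 and 0.064 FPKM, and the other epithelial and erythroid markers and those of T cells were not analysed here. The part of these markers in the results was not tested.

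The first pair of enzymes remakes arginine from citrulline, and their genes moved apart. ASS1 (ENSG00000130707; GRCh38 chromosome 9, 130444929 to 130501274, plus strand), whose product joins citrulline and aspartate in the rate-limiting step, had 32.1, 34.4, 39.0 and 35.4 FPKM in the libraries with 3-HPA, against 56.8, 59.4, 58.2 and 57.7 FPKM with LPS alone. Every library with 3-HPA lay well below every library with LPS alone. The means were 35.2 ± 2.88 FPKM with 3-HPA and 58.02 ± 1.10 FPKM with LPS alone (SD, n = 4 each), a log2 fold change of -0.71 (± 0.050 SE; limma gave an adjusted p of 4.72e-06), and 168 tested genes had a more negative one. These values rest on 3637 to 4195 reads per library with 3-HPA and 6431 to 7404 with LPS alone. ASS1 has near-identical pseudogene copies, of which 7 are in the table at no more than 0.140 FPKM. Reads shared with them are uncertain.

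ASL (ENSG00000126522; chromosome 7, 66075798 to 66093558, plus strand), which splits argininosuccinate into arginine and fumarate, had 2.71, 2.63, 2.96 and 2.78 FPKM with 3-HPA, against 1.97, 1.78, 2.20 and 2.14 FPKM with LPS alone. The groups did not overlap. The means were 2.77 ± 0.143 FPKM with 3-HPA and 2.02 ± 0.186 FPKM with LPS alone, a log2 fold change of 0.32 (± 0.055 SE; limma gave an adjusted p of 0.00134). With a pseudocount of 0.1 the change was 0.44, and with limma voom on recovered reads 0.46. In GENCODE 29, 17.6% of the exonic bases of ASL are shared with another gene on the same strand, so reads there are uncertain, and its pseudogene copy ASLP1 reached 0.379 FPKM. In FPKM, ASS1 stood 12.7 times as high as ASL with 3-HPA and 28.7 times as high with LPS alone. With the same reads divided by GENCODE lengths, these ratios would be 6.66 with 3-HPA and 15.1 with LPS alone. Reads were not recounted on GENCODE exons.

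ARG2 (ENSG00000081181; chromosome 14, 67619798 to 67651720, plus strand), the mitochondrial arginase that frees ornithine from arginine, had 0.361, 0.694, 0.504 and 0.693 FPKM with 3-HPA, against 0.619, 0.562, 0.592 and 0.397 FPKM with LPS alone. The groups overlapped. The log2 fold change was 0.02 with a 95% interval from -0.18 to 0.21 (limma adjusted p = 0.904). Only 31 to 64 reads per library lay behind it, and 37.4% of its exonic bases are shared with another gene on the opposite strand. The cytosolic arginase gene ARG1 stood at 0 to 0.06 FPKM with 3-HPA and 0.0234 to 0.0721 FPKM with LPS alone. NOS2, for the inducible nitric oxide synthase, stood at 0.0304 to 0.0437 FPKM with 3-HPA and 0 to 0.0424 FPKM with LPS alone. Both lay below the filter and were not tested.

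ODC1 (ENSG00000115758; chromosome 2, 10439968 to 10448504, minus strand), the gene of ornithine decarboxylase, had 23.2, 22.4, 20.6 and 20.6 FPKM with 3-HPA, against 24.4, 29.2, 28.5 and 26.7 FPKM with LPS alone. The groups did not overlap, though library 1 with 3-HPA and library 1 with LPS alone lay close to each other. The means were 21.7 ± 1.31 FPKM with 3-HPA and 27.2 ± 2.12 FPKM with LPS alone, a log2 fold change of -0.31 (± 0.059 SE; limma gave an adjusted p of 0.00238). AZIN1 (ENSG00000155096; chromosome 8, 102826357 to 102893864, minus strand) encodes antizyme inhibitor, an inactive relative of the decarboxylase that binds antizyme and so spares the active enzyme from degradation. It had 26.7, 28.8, 26.8 and 27.4 FPKM with 3-HPA, against 23.0, 23.3, 23.3 and 23.7 FPKM with LPS alone. All libraries with 3-HPA were higher, with a log2 fold change of 0.22 (± 0.026 SE; limma gave an adjusted p of 0.000132). OAZ1, for antizyme itself, which steers ODC1 protein to the proteasome, had 161.6, 162.2, 161.3 and 162.03 FPKM with 3-HPA, against 145.8, 143.4, 148.9 and 144.7 FPKM with LPS alone. It was higher in every library with 3-HPA, by 0.15 on the log2 scale (limma adjusted p = 3.67e-05). Other genes share 5.4% of the exonic bases of AZIN1 and 6.9% of those of OAZ1, and reads there are uncertain. Antizyme is made by a ribosomal frameshift that polyamines promote, a step that mRNA levels do not show.

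By mean level ODC1 stood below AZIN1 with 3-HPA and above it with LPS alone. The ratio of ODC1 to AZIN1 was 0.791 with 3-HPA and 1.17 with LPS alone, from group means. With the same reads divided by GENCODE lengths, it would be 0.924 with 3-HPA and 1.36 with LPS alone. On the log2 scale the ratio differed by -0.56, with -0.34 ± 0.093 with 3-HPA and 0.22 ± 0.109 with LPS alone (SD, n = 4 each; two-sided exact permutation p = 0.0286). The log2 ratio of AZIN1 to OAZ1 was -2.56 ± 0.047 with 3-HPA and -2.64 ± 0.0322 with LPS alone, a smaller difference of 0.08 in which the groups still did not overlap (exact permutation p = 0.0286).

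Of the genes that make spermidine and spermine, AMD1 rose, SRM fell and SMS did not pass. AMD1 (ENSG00000123505; chromosome 6, 110874770 to 110895713, plus strand), for S-adenosylmethionine decarboxylase, had 36.9, 37.6, 36.4 and 37.4 FPKM with 3-HPA, against 32.9, 32.7, 32.8 and 31.7 FPKM with LPS alone. The gap of the group means, 37.1 ± 0.531 FPKM with 3-HPA and 32.5 ± 0.538 FPKM with LPS alone, was wide against the spread within groups. AMD1 has 2 pseudogene copies in the table, at no more than 0.108 FPKM. The log2 fold change was 0.18 (± 0.019 SE; limma gave an adjusted p of 5.53e-05). SRM (ENSG00000116649; chromosome 1, 11054584 to 11060024, minus strand), for spermidine synthase, had 9.27, 9.21, 9.91 and 9.43 FPKM with 3-HPA, against 10.8, 12.4, 12.8 and 10.8 FPKM with LPS alone. The highest library with 3-HPA stayed below the lowest with LPS alone. The log2 fold change was -0.28 (± 0.057 SE; limma gave an adjusted p of 0.00353).

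SMS (ENSG00000102172; chromosome X, 21940573 to 21994835, plus strand), for spermine synthase, had 12.6, 12.6, 15.1 and 13.0 FPKM with 3-HPA, against 12.9, 13.4, 13.4 and 14.1 FPKM with LPS alone. Library 3 with 3-HPA was the highest of all 8 and the other libraries with 3-HPA lay among or below those with LPS alone. The log2 fold change was -0.02 with a 95% interval from -0.14 to 0.11 (limma adjusted p = 0.851), and -0.07 without that library (limma adjusted p = 0.119). SRM relative to SMS was 0.710 with 3-HPA and 0.872 with LPS alone, a log2 ratio difference of -0.29 (exact permutation p = 0.0286).

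The genes of polyamine breakdown changed very unequally. SAT1 (ENSG00000130066; chromosome X, 23783173 to 23786226, plus strand) encodes the acetyltransferase that tags spermidine and spermine for export or oxidation. It had 279.2, 273.9, 276.2 and 275.4 FPKM with 3-HPA, against 271.2, 255.8, 269.5 and 264.2 FPKM with LPS alone. The lowest library with 3-HPA lay just above the highest with LPS alone, and the ratio of means was 1.04. The log2 fold change of 0.06 (± 0.019 SE; limma gave an adjusted p of 0.0349) passed as deposited but not with equal FPKM totals (0.02, limma adjusted p = 0.370). Leaving out LPS library 2 or 4, or any 1 library with 3-HPA, also ended the call, with values of 0.04 to 0.06 and limma adjusted p between 0.0512 and 0.0813.

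SMOX (ENSG00000088826; chromosome 20, 4120980 to 4187747, plus strand) encodes spermine oxidase, which turns spermine back into spermidine and releases hydrogen peroxide and an aminoaldehyde. It had 47.5, 45.4, 49.4 and 47.8 FPKM with 3-HPA, against 20.4, 20.8, 20.9 and 20.8 FPKM with LPS alone. The libraries with LPS alone were nearly identical and each library with 3-HPA was more than 2 times as high. The means were 47.5 ± 1.63 FPKM with 3-HPA and 20.7 ± 0.229 FPKM with LPS alone, 2.29-fold, with a log2 fold change of 1.16 (± 0.026 SE; limma gave an adjusted p of 7.2e-09). Among the 12499 tested genes, 31 had a higher log2 fold change. SMOX relative to SAT1 was 0.172 with 3-HPA and 0.0782 with LPS alone, a log2 ratio difference of 1.14 (exact permutation p = 0.0286).

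**Figure D2:**
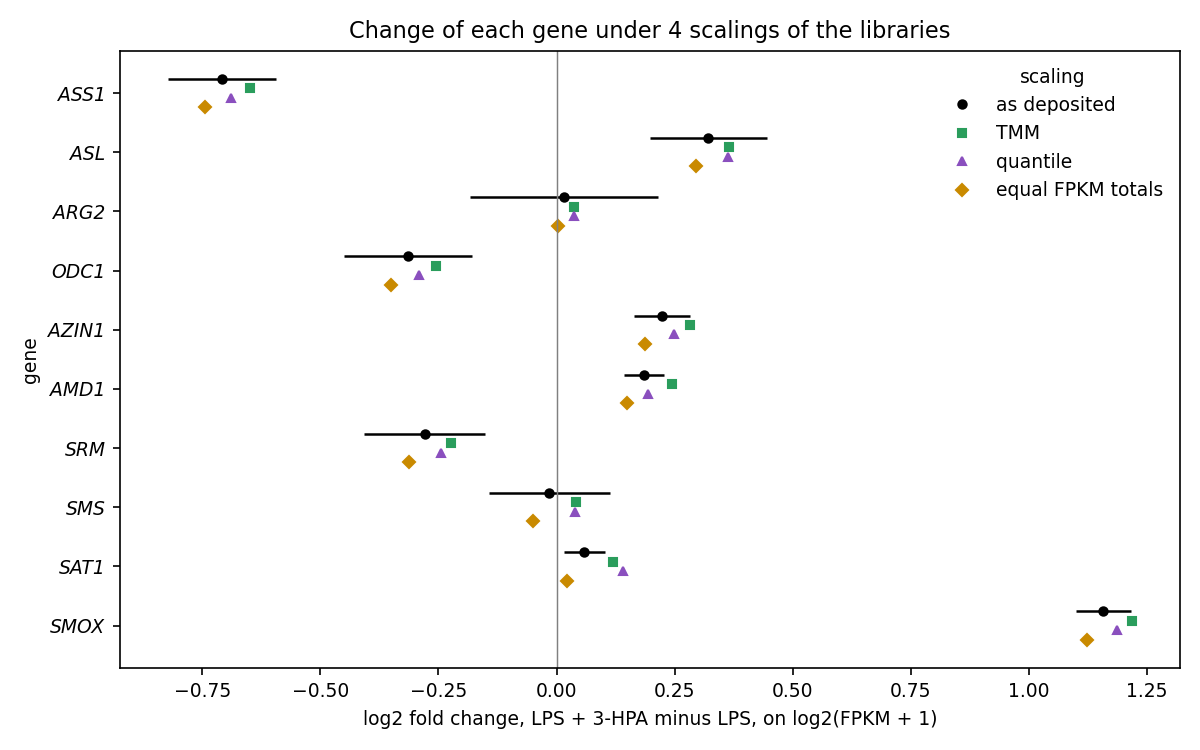
Log2 fold change (LPS with 3-HPA minus LPS, on log2(FPKM + 1)) of each gene under 4 scalings of the libraries. Bars are 95% intervals for the values as deposited. SMOX (1.16) and ASS1 (-0.71) lie farthest from 0, and the SMS value crosses 0 between scalings.

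The changes were read under other scalings of the libraries, since the split of all changed genes depends on them. Of all genes that passed, the share that was higher was 36% as deposited, 28.5% with library totals made equal, 50.7% after trimmed-mean (TMM) scaling and 46.4% after quantile normalisation. Among the 10 genes the split was 5 higher and 3 lower as deposited, after TMM and after quantile normalisation, and 4 and 3 with equal totals. SMOX ran from 1.12 with equal totals to 1.22 with TMM, and ASS1 from -0.74 with equal totals to -0.65 with TMM. The value of SMS was 0.04 with TMM and -0.05 with equal totals and did not pass under either.

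A ratio of 2 genes within 1 library does not depend on the library's scaling. In all 6 ratios examined the groups did not overlap. The pairs join genes whose own changes were known, 42.2% of single tested genes do not overlap either, and no share was computed for other pairs of genes, so this count is a description. Each gave the smallest two-sided p that an exact permutation of 4 against 4 libraries can give, 0.0286, also after Benjamini-Hochberg adjustment over the 6. The widest difference was in ASS1 to ASL, with a log2 ratio of 3.67 ± 0.0703 with 3-HPA and 4.85 ± 0.150 with LPS alone (SD, n = 4 each). ODC1 to SAT1 sets the first committed step to polyamines against the acetylation step of their breakdown. Its log2 ratio was -3.67 ± 0.0827 with 3-HPA and -3.29 ± 0.143 with LPS alone, a difference of -0.39.

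**Figure D3:**
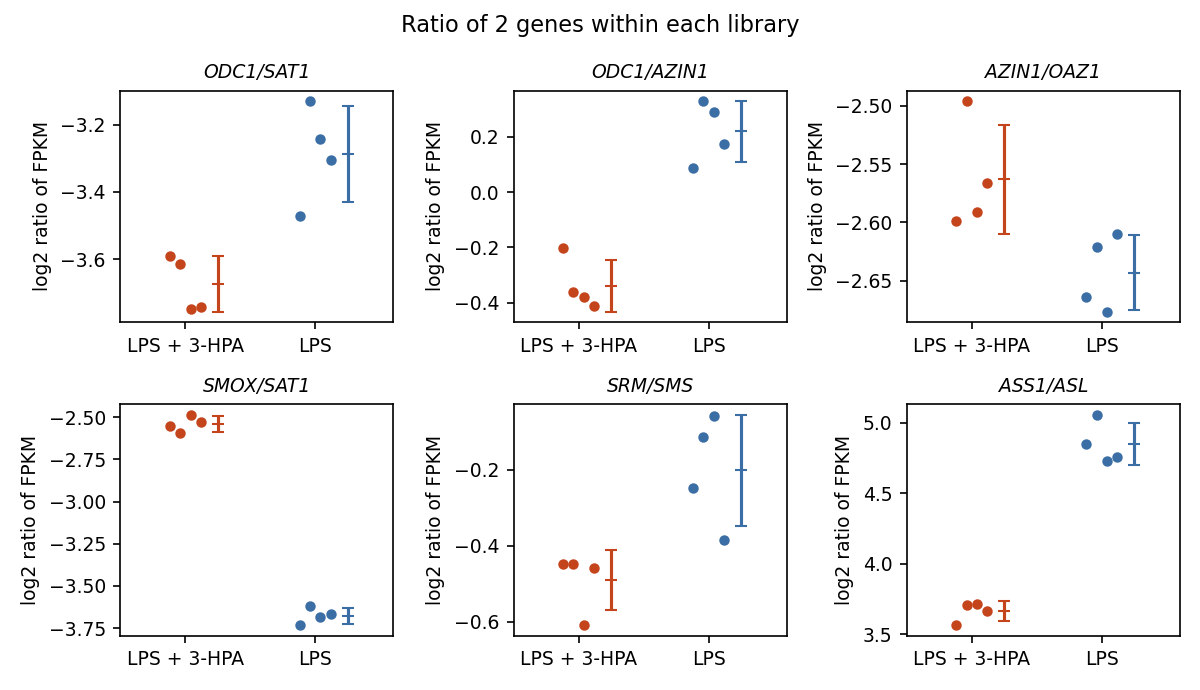
Log2 ratio of FPKM of 2 genes in each of the 4 libraries with LPS and 3-HPA (left) and 4 with LPS alone (right), with means and SD. SMOX to SAT1 is higher with 3-HPA by 1.14, and ASS1 to ASL is lower by 1.18, on vertical axes that do not start at 0.

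Promoter sequence from RefSeq (GRCh38.p14) was at hand for 8 of the 10 genes, in 12 windows of 300 bases, from 250 before to 50 after an annotated start. SMOX and AZIN1 were not matched. The windows were searched on both strands for the E-box CACGTG, the letters bound by MYC with its partner MAX, a pair known to activate ODC1. Of all 35116 promoter windows 7.26% hold it. Of the 12 windows searched 3 hold it, in ASS1, ODC1 and SRM. These are the 3 genes that fell, but SMOX and AZIN1, which rose, could not be searched. The part of the E-box in the changes was not tested. The windows of ASS1 and SRM are shown from their first base to the last one before the gene's 5′ end in GENCODE 29. Of the ODC1 window, which lies inside the gene, the E-box is shown with 12 bases on each side. These carry the shared letters, with the E-box in capitals, 5′ to 3′ on the gene's strand. They lie at chr9:130444711-130444928 (plus strand), chr2:10448024-10448053 (minus strand) and chr1:11060025-11060268 (minus strand).
ASS1: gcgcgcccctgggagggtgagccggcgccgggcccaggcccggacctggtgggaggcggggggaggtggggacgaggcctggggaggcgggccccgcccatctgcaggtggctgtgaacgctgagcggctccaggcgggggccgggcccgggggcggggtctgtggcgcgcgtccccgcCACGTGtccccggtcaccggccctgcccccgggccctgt
ODC1: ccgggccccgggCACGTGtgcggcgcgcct
SRM: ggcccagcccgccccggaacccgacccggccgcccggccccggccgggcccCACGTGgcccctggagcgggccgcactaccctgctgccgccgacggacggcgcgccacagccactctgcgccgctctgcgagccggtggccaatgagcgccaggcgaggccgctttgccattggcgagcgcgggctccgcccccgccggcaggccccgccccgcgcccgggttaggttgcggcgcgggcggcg
Counted from the 5′ end of the gene in GENCODE 29, the E-box begins 39 bases before it in ASS1 and 193 before it in SRM. In ODC1 it begins 463 bases past that end, outside the annotated exons, 29 bases before a more downstream RefSeq start, and another one begins 497 bases past it. The window of ODC1 at the upstream RefSeq start holds no E-box, and neither does the other window of ASS1. An antioxidant response element core, TGACNNNGC, was found in that upstream window of ODC1, in an exon 172 bases past the 5′ end, and in 13.35% of all windows. The C/EBP-ATF element TGATGNAAT was found in none of the 12 windows and in 0.99% of all. No match overlapped another, and a match describes letters only.

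MYC and MAX were both lower with 3-HPA. MYC had 13.2, 13.6, 13.0 and 12.7 FPKM with 3-HPA, against 15.4, 14.8, 14.8 and 15.02 FPKM with LPS alone (log2 fold change -0.18, limma adjusted p = 0.000555). MAX had 16.2, 16.4, 15.9 and 15.8 FPKM with 3-HPA, against 21.9, 22.4, 22.1 and 22.5 FPKM with LPS alone (-0.44, limma adjusted p = 2.66e-07). Neither gene's groups overlapped. HIF1A (-0.29) and ATF4 (-0.14), factors that respond to low oxygen and to amino acid shortage, fell as well. Thus 4 of 4 regulators on the list were lower, beside 28.0% of all tested genes. The list does not sort them by whether they activate or repress ODC1 and ASS1. With TMM scaling the value of ATF4 was -0.07 (limma adjusted p = 0.0109). Their part in the changes of ODC1 and ASS1 was not tested.

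Around these 10 genes, 49 others were examined, from the same pathways and including the 4 regulators above. Of the 49, 45 were in the table and 33 lay above the filter. With 3-HPA 4 rose, 14 fell and 15 did not pass, beside 15.7% higher and 28.0% lower among all tested genes. The 4 regulators are among the 14 that fell. The median log2 fold change was -0.03, and -0.05 for all tested genes. TMM scaling gave 4 higher and 9 lower, beside 2602 higher and 2527 lower among all 12499 tested genes. Equal totals gave 3 and 14, beside 1686 and 4240 among all tested genes. The 4 regulators are among the lower genes under both scalings. OTC, PRODH, MTAP and EIF5A were not analysed here.

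Of 10 tested genes of arginine uptake and use, 2 rose and 3 fell, beside 15.7% higher and 28.0% lower among all tested genes. SLC7A1, for the main cationic amino acid transporter that brings arginine into cells, had 28.1, 28.4, 28.6 and 28.6 FPKM with 3-HPA, against 38.2, 38.1, 37.8 and 38.7 FPKM with LPS alone. The groups were far apart for their spread, with a log2 fold change of -0.41 (± 0.016 SE; limma gave an adjusted p of 1.11e-07). SLC3A2, the heavy chain shared by several amino acid exchangers, fell by 0.28 on the log2 scale and GATM, for the first enzyme of creatine synthesis from arginine, fell by 0.14. SLC25A29, for a mitochondrial carrier of basic amino acids, rose by 0.21. SLC7A7, for a light chain that exports arginine and named here after its value was seen, rose by 0.10. The GATM call ended with TMM (limma adjusted p = 0.139), with quantile normalisation (limma adjusted p = 0.120) and without library 2 or 4 with 3-HPA or LPS library 2, 3 or 4 (log2 fold change -0.14 to -0.11). That of SLC7A7 ended with equal totals (limma adjusted p = 0.153), without trend (limma adjusted p = 0.0622) and without library 2, 3 or 4 with 3-HPA or LPS library 1, 3 or 4 (0.08 to 0.10).

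Beside 28.0% lower and 15.7% higher among all tested genes, 2 of 4 tested genes that link ornithine and proline fell and 0 rose. These were PYCR1 (-0.29), for a pyrroline-5-carboxylate reductase of the last step to proline, and ALDH18A1 (-0.21), for the step that begins the route from glutamate. OAT, which converts ornithine to the shared intermediate, did not pass (-0.02, limma adjusted p = 0.867). The ALDH18A1 call ended with TMM (limma adjusted p = 0.0598) and without library 3 with 3-HPA or LPS library 3 or 4 (-0.20 to -0.19).

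In polyamine feedback, oxidation and transport, 2 of 5 tested genes rose and 0 fell, beside 15.7% higher and 28.0% lower among all tested genes. Those that rose were OAZ1 and ATP13A3. ATP13A3, for a transporter linked to polyamine uptake, had 39.4, 38.8, 37.7 and 39.1 FPKM with 3-HPA, against 27.7, 27.0, 27.6 and 28.4 FPKM with LPS alone. All libraries with 3-HPA were higher, and the log2 fold change of 0.47 (± 0.022 SE; limma gave an adjusted p of 2.89e-07) was the next largest rise after SMOX among the tested genes of these lists. OAZ2, a second antizyme gene, did not pass (0.00, limma adjusted p = 0.922).

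Of 7 tested genes of the S-adenosylmethionine and methylthioadenosine cycle, which feeds AMD1 and recycles its by-product, 3 fell and 0 rose. That stands beside 28.0% lower and 15.7% higher among all tested genes. MAT2A, for the enzyme that makes S-adenosylmethionine, had 42.9, 42.9, 43.3 and 43.4 FPKM with 3-HPA, against 53.8, 53.7, 52.9 and 54.03 FPKM with LPS alone. Its log2 fold change was -0.31 (± 0.014 SE; limma gave an adjusted p of 3.31e-07), opposite in sign to that of AMD1. The salvage enzyme gene ENOPH1 fell by 0.24 and AHCY, for the hydrolase of S-adenosylhomocysteine, fell by 0.09. The AHCY call ended with TMM (limma adjusted p = 0.379), quantile normalisation (limma adjusted p = 0.143), voom (limma adjusted p = 0.0703) and no trend (limma adjusted p = 0.0501), and without library 1 or 2 with 3-HPA or LPS library 1, 3 or 4 (-0.10 to -0.08). Of 3 tested genes of hypusination, the modification of the translation factor eIF5A with a group taken from spermidine, DOHH (-0.21) and EIF5A2 (-0.17) fell and DHPS did not pass (limma adjusted p = 0.827). Neither DOHH (limma adjusted p = 0.0647) nor EIF5A2 (limma adjusted p = 0.0888) passed with TMM, nor with quantile normalisation (limma adjusted p = 0.0612 and 0.0957). The DOHH call also ended without library 4 with 3-HPA (-0.19), and that of EIF5A2 without library 2 or 3 with 3-HPA (both -0.16). Testing all 30233 genes without the filter ended the calls of GATM, SLC7A7, ALDH18A1, AHCY, DOHH and EIF5A2, with limma adjusted p between 0.0547 and 0.0853.

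**Figure D4:**
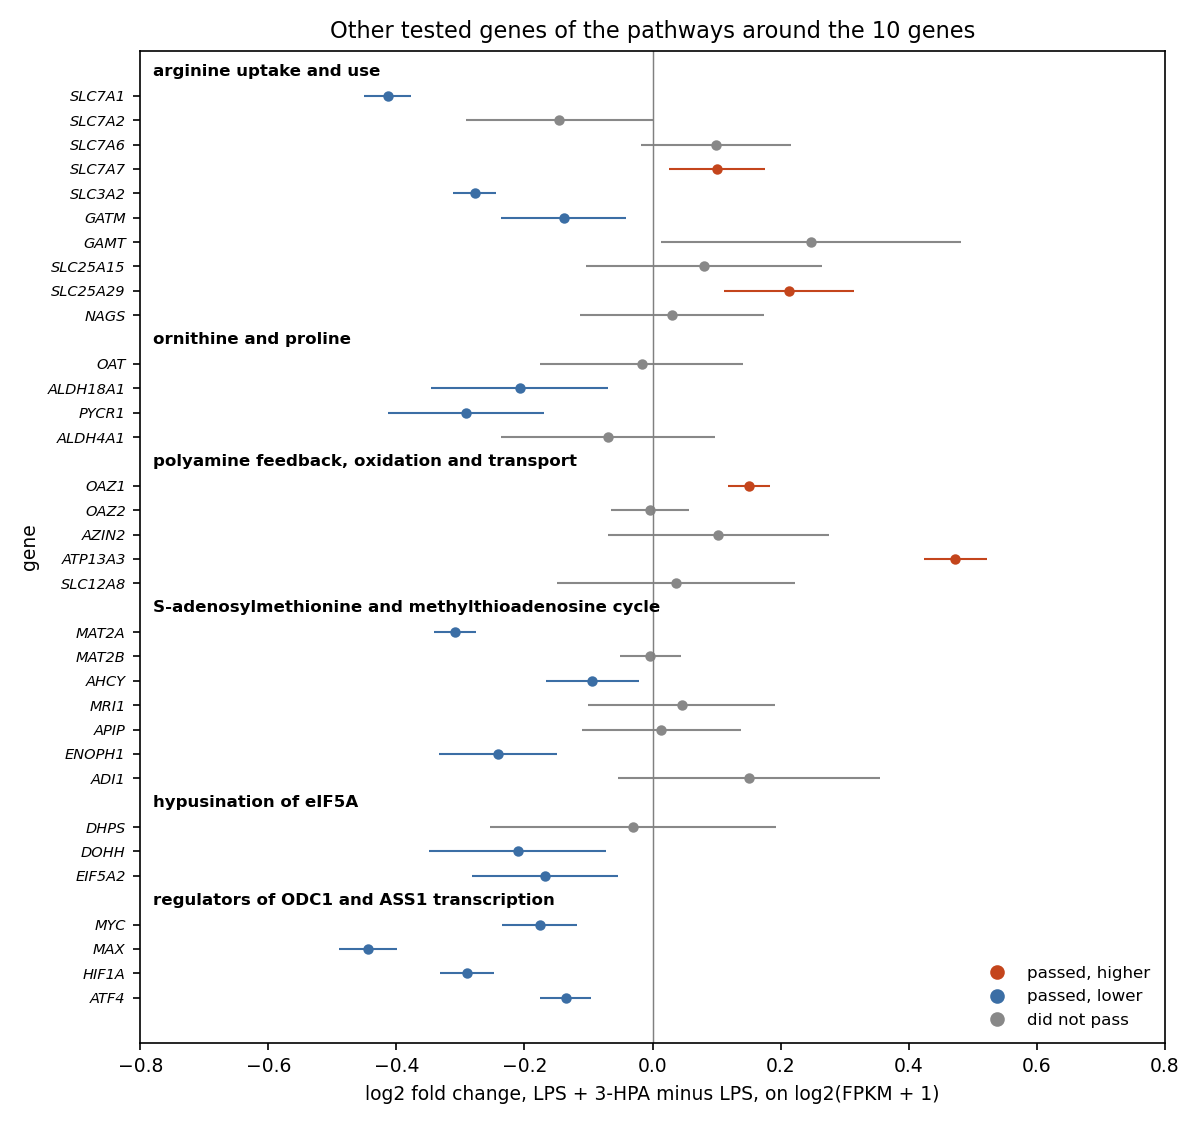
Log2 fold change (LPS with 3-HPA minus LPS, on log2(FPKM + 1)) with 95% intervals of the 33 other tested genes, the 4 regulators included. Genes are grouped by list and coloured by whether they passed an adjusted p of 0.05. ATP13A3 (0.47) is the highest, and MAX (-0.44) and SLC7A1 (-0.41) are the lowest.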

How the data were processed

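The authors deposited 1 table of FPKM values, per the labels, for 30233 genes in 8 libraries. Per the submitters' processing notes, fastp 0.22.0, HISAT2 2.1.0 and featureCounts were used on GRCh38; the annotation release, strand setting and gene lengths are not stated, so overlapping and antisense genes are uncertain. Libraries were made from total RNA extracted with TRIzol, per the labels' protocols.

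Symbols came from the reference's gene names (30221 matched, 12 not) and positions from GENCODE 29. The comparison used limma 3.58.1 in R 4.3.3, fitted to log2(FPKM + 1) with a mean-variance trend, two-sided, in the 12499 genes with at least 0.5 FPKM in at least 4 libraries, with Benjamini-Hochberg adjustment over all of them at 0.05. A table of FPKM is not counts, so no count model is the main test. Library totals and gene lengths that make the values whole within 0.01 reads in all 8 libraries were searched for and gave reads for 100% of the tested genes; both mates of a pair appear to count as reads. Library pairs with identical values numbered 0. Ratios were tested by exact permutation over the 70 splits. The fit was also run on simulated reads with planted changes, as a check of the code, and no call above rests on that run. Python 3.11.15, numpy 2.4.6, pandas 2.3.3, scipy 1.17.1 and matplotlib 3.10.9 were used.

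Outside the 10 genes, those named were up to 4 with the smallest p per list among genes past the threshold, genes in a ratio, and ARG1 and NOS2. SLC7A7, OAT, OAZ2, DHPS and the marker genes are named outside this rule, chosen after their values were seen. One result that this rule selects is not reported here. The genes and lists were chosen with earlier results of these data known. Alternatives were no filter on low values, a filter at 1 FPKM, pseudocounts of 0.5 and 0.1, equal totals, TMM, quantile normalisation, no trend, library weights, a replicate block, voom on recovered reads and leaving out each library; for ratios, leaving out each library and a pseudocount of 1.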

Additional observations from a re-analysis of the deposited data

Results flagged for a closer look

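In groups of 4 libraries, 3 of 32 groups examined (the 10 genes and 6 ratios in each condition) had a library far from the other three by Dixon's criterion, where chance gives about 1 in 20. SMS with 3-HPA stood at 15.1 FPKM in library 3, beside 12.6, 12.6 and 13.0 FPKM in the others (gap over range 0.837). The ratio of SRM to SMS with 3-HPA was accordingly set apart in the same library, at -0.61 on the log2 scale beside -0.45, -0.45 and -0.46 (0.92). Without library 3 with 3-HPA the SRM to SMS difference was -0.25, against -0.29 with all libraries. That library was also the shallowest, with 35647756 reads, and its part in these values was not tested beyond leaving it out. AMD1 with LPS alone stood at 31.7 FPKM in library 4, beside 32.9, 32.7 and 32.8 FPKM (0.856). Without that library the log2 fold change of AMD1 was 0.17, against 0.18 with all libraries.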

How the results depend on the processing

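Over 19 alternatives, 180 of 189 values of the 10 genes kept their direction where called and their side of the threshold, and all 9 others were losses of the SAT1 call. SAT1 (0.0589 as reported) stood at 0.022 with equal FPKM totals (limma adjusted p = 0.370). It stood at 0.0589 without the filter (limma adjusted p = 0.0943) and at 0.0589 without trend (limma adjusted p = 0.116). Leaving out each library gave SAT1 values between 0.0419 and 0.0699, and 2 of these 8 fits kept the call. The cause of the losses was not tested. ARG2 could not be tested with the filter at 1 FPKM. Among the other pathway genes and regulators 44 of 624 values lost their call, 7 gained one and 0 reversed. Same-numbered libraries of the groups share a number, and the sample titles give no pairing. Correlations of their deviations were -0.02 to 0.09, beside -0.056 to 0.076 for differently numbered libraries. With so few pairs, these values cannot decide whether libraries were paired. With the replicate number as a block 5 of the 10 genes were higher and 3 lower, as without it, with 1854 higher and 3220 lower among all genes. Of the other named pathway genes, GATM (limma adjusted p = 0.0644), ALDH18A1 (limma adjusted p = 0.0511) and AHCY (limma adjusted p = 0.0723) did not pass with the block. Ratio differences moved by less than the spread between libraries when each library was left out (ASS1 to ASL -1.22 to -1.11, SMOX to SAT1 1.12 to 1.16); with 4 against 3 libraries an exact permutation cannot go below 0.0571. Few reads limit ARG2.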
